A study of Homo sapiens with 6 samples.

Results

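LKB1, AMPK and the AMPK-related kinases were followed through 10 genes, chosen by name as NIM1K and 9 of its relatives: STK11, PRKAA1, PRKAA2, SIK2, SIK3, NUAK1, NUAK2, MARK2 and MARK3. All 10 were found among the 28979 gene IDs of the count files. NIM1K was chosen because its counts in these same libraries were much lower in one group than in the other, so its group values are given as a description with no test. The other 9 were taken as its kinase relatives, to see whether NIM1K stood alone. The libraries were made from poly-A RNA of MDA-MB-231, an established human breast cancer line, in 3 libraries labelled Con and 3 labelled Ang. The series describes MDA-MB-231 cells given exosomes from normal or from hypertrophic cardiomyocytes, to look for targets of vesicle microRNAs. The labels give no treatment, dose or time for Con or Ang, so these names are used as they stand. Nothing in the labels ties a library to a culture of its own, and the spread between libraries of a group may therefore be technical.

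LKB1, the product of STK11, is a serine/threonine kinase and tumour suppressor that works in a complex with a STRAD pseudokinase and the scaffold MO25. It phosphorylates the activation loop of AMPK, the energy sensor of the cell, and of a set of kinases with related catalytic domains, the SIK, NUAK, MARK and BRSK kinases among them. AMPK restrains lipid synthesis and growth when energy is short, the SIK kinases hold CRTC coactivators and class IIa histone deacetylases in the cytoplasm, the NUAK kinases act on myosin phosphatase, and the MARK kinases phosphorylate microtubule-associated proteins. NIM1K encodes NIM1, a little-studied serine/threonine kinase of the same family.

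Total counts ran from 3369212 to 5437190 per library. VIM, a mesenchymal marker of this line, averaged 928 ± 152 CPM in Con against 1032 ± 49.6 in Ang (SD, n = 3 each). VIM has 24.4% of its exon bases under another gene on the opposite strand. CPM are read counts scaled to library size with TMM factors. ESR1 and PGR, the hormone receptor genes, had at most 3 counts in any library, whereas KRT8, listed among the low markers, had 955 ± 130 CPM in Con. Of 20 cardiomyocyte markers 13 were matched, with a summed level of 208 to 312 CPM in Con and 220 to 260 CPM in Ang, nearly all of it TTN. TTN has 15.5% of its exon bases under another gene on the opposite strand. NPPA, an atrial peptide gene with 25.5% of its exon bases under another gene on the opposite strand, had 22 to 55 counts in every library (10.7 ± 5.77 CPM in Con, 8.31 ± 3.57 in Ang). MB, the myoglobin gene, had 2, 7 and 5 counts in Con against 13, 16 and 5 in Ang, and MYH6, MYL2 and RYR2 had at most 1 in a library. Among other low markers of this list, LDB3 had 21 counts in Con and 4 in Ang, NPPB 14 and 5, and TNNI3 9 and 1. PLN had 5 and 9, so the low markers shared no direction. The part of cardiomyocyte RNA in the results was not tested. Counts of protein-coding genes were low beside those of the strand opposite to them. Over 250 pairs of a non-coding gene lying under the exons of a coding gene, counts per base were 32.5 times higher (median) in the non-coding gene, with library medians of 23.2 in Con replicate 2 and 32.9 to 41.1 in the other 5 libraries. The counts of the kinase genes are therefore uncertain as measures of their own RNA, and no exon of 8 of the 10 lies under another gene, so such a pair could not be formed for them. STK11 shares 149 exon bases with CBARP and SIK2 shares 150 with PPP2R1B, in both cases on the opposite strand.

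NIM1K was low in all libraries and lower still in Ang. The gene (ENSG00000177453) lies on the plus strand of chromosome 5 (43192071 to 43280850, GRCh38). It had 20, 28 and 11 counts in Con replicates 1 to 3, and 2, 1 and 1 counts in Ang replicates 1 to 3. Scaled for depth, these were 4.22, 4.73 and 3.46 CPM in Con and 0.587, 0.252 and 0.289 CPM in Ang. The groups did not overlap, and every Ang library was within the 3 counts that a count of 0 allows at the 95% level. The summed counts were 59 in Con and 4 in Ang, a depth-scaled ratio of 0.0865 with an exact binomial (Clopper-Pearson) interval of 0.0228 to 0.234. This is a level 11.6-fold lower in Ang, with an interval of 4.28-fold to 43.8-fold. The interval takes each read as an independent count and leaves out the spread between libraries. PCR copies of a molecule were not marked and count as separate reads, so it may be too narrow even for counting error. It describes a difference for which NIM1K was chosen and is not a test. In bulk RNA, fewer cells with NIM1K and less NIM1K RNA per cell cannot be told apart. Whether these few reads came from NIM1K RNA at all, or from the opposite strand, is uncertain as for the other kinase genes and was not tested.

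As a share of the counts of all 10 kinase genes, NIM1K made up 1.43%, 1.52% and 1.20% in Con replicates 1 to 3. In Ang replicates 1 to 3 the shares were 0.208%, 0.0794% and 0.104%. The counting error of such a share was wide, with an exact binomial 95% interval of 0.600% to 2.14% in Con replicate 3 and of 0.0252% to 0.751% in Ang replicate 1. The other 9 genes together had 292, 308 and 285 CPM in the Con libraries and 281, 317 and 278 CPM in the Ang libraries. Their sum thus lay in the same range in both groups. The share of NIM1K did not, which follows from the counts for which NIM1K was chosen and is no separate result.

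**Figure D1:**
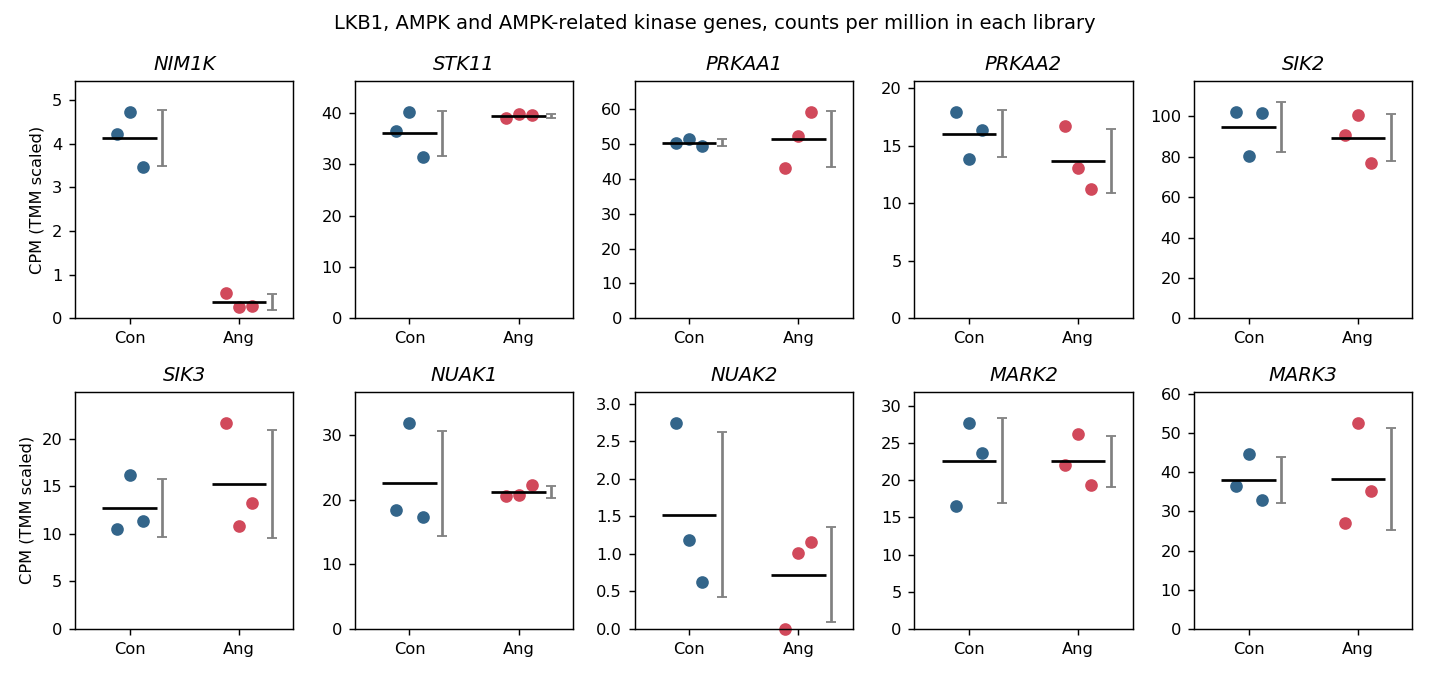
CPM (TMM scaled, vertical axis from 0, separate scale in each panel) of the 10 kinase genes in the 3 Con and 3 Ang libraries; points are libraries, black lines group means and grey bars the SD. NIM1K, which was chosen for this difference, is the one panel in which all Ang points (0.252 to 0.587 CPM) lie below all Con points (3.46 to 4.73 CPM). Of all tested genes 4.54% had all Ang values below all Con values.

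The fitted log2 fold change of NIM1K, Ang minus Con, was -3.39 ± 0.96 (SE), the lowest of the 14547 genes kept by edgeR's low-count filter. The next lowest gene had -2.67. A fitted fall of at least 8-fold was found for 1 of the 14547 genes (0.00687%), which was NIM1K, and one of at least 2-fold for 222 (1.53%). As NIM1K was chosen for this difference, neither its place nor the first share measures how rare such a fall is. Its place depended on that filter, which asks for about 2.65 CPM in at least 3 libraries. NIM1K met this in 3 Con and 0 Ang libraries, so it could be kept only by being higher in Con. With no filter it stood at place 896 of 28979 genes, in DESeq2 at place 339 of 28979, and with a filter of 1 CPM in 3 libraries at place 9 of 17485. With 1 library left out it stood at places 1 to 16. Among 2148 kept genes with a Con mean of 3 to 6 CPM, 137 (6.38%) were at least 2-fold lower in Ang and 6 (0.279%) at least 4-fold lower, while 23 were at least 2-fold higher. Taking genes by a Con mean close to the filter favours lower Ang values, so these counts give no direction. The median SE of these genes was 0.61, against 0.30 over all kept genes.

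None of the genes around NIM1K separated the groups, but some had too few counts to show a gap. ZNF131, a zinc finger gene that ends 50 bases before NIM1K on the same strand, gave 31.0, 28.6 and 28.9 CPM in Con against 32.3, 27.2 and 18.5 in Ang. AC025171.1, further from NIM1K on the minus strand, averaged 11.8 ± 4.12 CPM over Con and 11.4 ± 3.41 over Ang libraries. Both pseudogenes inside NIM1K had at most 1 count in a library. AC025171.4, a non-coding RNA gene, had 0, 8 and 6 counts in Con and 4, 2 and 1 in Ang. AC114947.2, an antisense RNA gene 6751 bases past the end of NIM1K and also on the plus strand, averaged 678 ± 146 CPM over Con and 622 ± 38.0 over Ang libraries, with a log2 fold change of -0.12 ± 0.17. It lies partly under HMGCS1, a cholesterol synthesis gene on the minus strand, which had 126 ± 11.8 and 119 ± 5.42 CPM. Over all libraries AC114947.2 held 6.31 and HMGCS1 0.645 counts per exon base, where NIM1K held 63 counts on 3619 exon bases.

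Because the study looked for microRNA targets, the 3′ untranslated region of each kinase gene (its longest annotated form) was searched for sites of 23 microRNAs known from heart muscle, hypertrophy or vesicles. A site was a match to the complement of bases 2 to 8 of the microRNA, the seed. The microRNAs were not measured in these libraries. The annotated region of NIM1K has 121 bases, at percentile 2.86 of the lengths over kept genes. It held 1 site, for miR-195-5p, a member of the miR-15/16 family. Its RefSeq mature sequence (chr17:7017667-7017687, minus strand, GRCh38.p14) is shown with the seed in capitals, above the stretch of NIM1K and of the other members that match it, with the matching bases in capitals and transcript sequence from GENCODE 29.
hsa-miR-195-5p: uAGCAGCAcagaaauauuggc
NIM1K: agatgattgtTGCTGCTtctaaatttt
STK11: gaacgggaggTGCTGCTgggtaccctg
PRKAA1: agaaaaatctTGCTGCTttttgtccag
SIK2, first: tgatcacctgTGCTGCTctgtccctaa
SIK2, second: gataatgggcTGCTGCTggctctgtgg
NUAK1, first: gaacagcctaTGCTGCTgccctgctgg
NUAK1, second: tgttaccaggTGCTGCTtcttcagatg
NUAK2: ctcctgaagtTGCTGCTgtgaatctga

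The match TGCTGCT occurred in 6 of the 10 kinase genes, at 8 places, and in 25.4% of the 11069 kept genes with an annotated region. It was found in 2.92% of 240 regions within 25% of the length of that of NIM1K. These shares are for 1 microRNA, named because it was the one of 23 that matched NIM1K. The share of such short regions with a site for any of the 23 was not counted. The values given here therefore do not say how rare a region with 1 site is. The other 9 members had regions of 604 to 7622 bases with 1 to 21 sites. PRKAA2 had the longest, with 21 sites for 15 of the 23 microRNAs, and MARK3 the shortest, with 1 site. The tested members that share the miR-195-5p match with NIM1K are STK11, PRKAA1, SIK2 and NUAK1, and their log2 fold changes were 0.12, 0.03, -0.08 and -0.11. A match is a description of the sequence and was not tested as a site of action.

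Of the other 9 members, 8 passed the low-count filter and none passed the test between Ang and Con. After Benjamini-Hochberg adjustment over all genes, edgeR's quasi-likelihood test called 0 of these 8, where it called 0 of 14547 genes (0%). At an unadjusted p under 0.05 the count was 0 of 8 by edgeR, by limma-voom and, over 9 members, by DESeq2, beside 494 of all genes (3.4%) by edgeR. The log2 fold changes ran from -0.23 to 0.25, with 4 above and 4 below 0 and a median of 0.00, against a median of -0.01 over all genes. A 2-fold change in either direction was fitted for 0 of the 8 and for 2.46% of all genes. All 8 had a 95% interval within 2-fold in both directions, the widest bounds being -0.87 and 0.91, whereas 64.2% of all genes had such an interval. Its width depends on the counts of a gene, and 4 of 2148 kept genes with a Con mean of 3 to 6 CPM had one. In 0 of 8 did the 3 Ang values lie wholly outside the Con values, where 8.16% of all genes showed this, 4.54% lower and 3.62% higher in Ang. Changes smaller than these intervals could not be detected with the spread of these libraries.

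STK11, the LKB1 gene, lies on chromosome 19 (1177558 to 1228435). It had 36.5, 40.2 and 31.5 CPM in Con and 39.0, 39.8 and 39.6 CPM in Ang. The Ang libraries were closely spaced and lay within the Con range, with a log2 fold change of 0.12 ± 0.23.

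The genes of both catalytic AMPK subunits overlapped between the groups. PRKAA1, which encodes the alpha1 subunit on chromosome 5 (40759379 to 40798374), had 50.3, 51.4 and 49.4 CPM in Con and 43.1, 52.2 and 59.2 CPM in Ang. The Ang libraries lay on both sides of the narrow Con range, with a log2 fold change of 0.03 ± 0.21. PRKAA2, which encodes the alpha2 subunit on chromosome 1 (56645322 to 56715335), had 18.0, 13.9 and 16.4 CPM in Con. Its Ang values were 16.7, 13.1 and 11.3 CPM, of which 2 lay below the Con range, with a log2 fold change of -0.23 ± 0.32. This was the lowest value among the 8 tested relatives of NIM1K.

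SIK2 had the highest CPM of the 10 genes, not scaled for gene length. This salt-inducible kinase gene on chromosome 11 (111602391 to 111730853) had 102, 80.5 and 102 CPM in Con and 91.0, 101 and 77.1 CPM in Ang, and its log2 fold change was -0.08 ± 0.18. SIK3, a relative on the same chromosome (116843402 to 117098437), had 10.6, 16.2 and 11.3 CPM in Con and 21.7, 10.8 and 13.3 CPM in Ang. Ang replicate 1 alone exceeded the Con range, and the log2 fold change of 0.25 ± 0.33 became -0.09 ± 0.40 without it.

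NUAK1, a kinase gene on chromosome 12 (106063340 to 106140033), had 18.4, 31.95 and 17.3 CPM in Con and 20.5, 20.7 and 22.2 CPM in Ang. Con replicate 2 stood above the other 5 libraries, and without it the log2 fold change of -0.11 ± 0.28 became 0.24 ± 0.30. NUAK2, its relative on chromosome 1 (205302059 to 205321791), was the only member that did not pass the filter. It had 13, 7 and 2 counts in Con and 0, 4 and 4 in Ang, so the groups overlapped. The depth-scaled ratio of its 8 Ang to its 22 Con counts was 0.464, and its exact binomial interval ran from 0.179 to 1.08. At this depth a difference in NUAK2 was not detectable.

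MARK2 and MARK3 had the fitted values nearest to 0 among the 8 tested relatives of NIM1K. MARK2, on chromosome 11 (63838928 to 63911019), had 16.5, 27.7 and 23.6 CPM in Con and 22.0, 26.2 and 19.4 CPM in Ang, and its log2 fold change was -0.00 ± 0.28. MARK3, on chromosome 14 (103385392 to 103503831), had 36.5, 44.6 and 33.0 CPM in Con and 27.0, 52.7 and 35.2 CPM in Ang, and its log2 fold change was 0.01 ± 0.23. In MARK3 the lowest and the highest of all 6 libraries were both Ang.

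**Figure D2:**
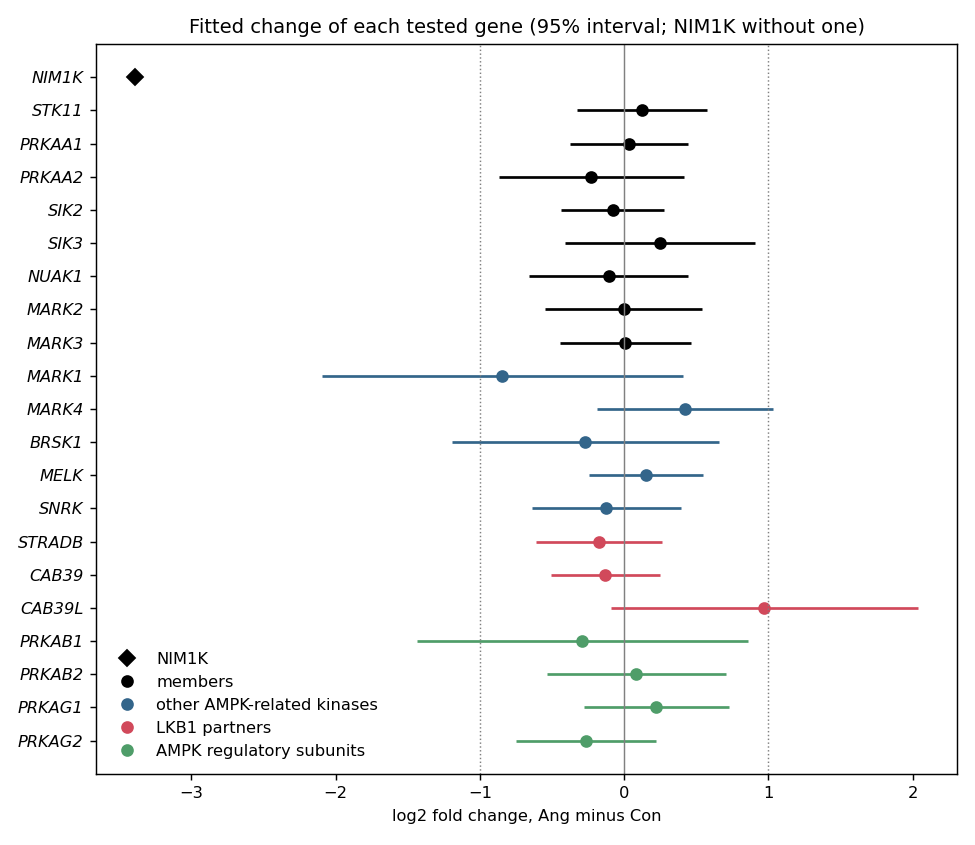
Fitted log2 fold change, Ang minus Con (horizontal axis), of the 9 tested members and of 12 related genes, with 95% intervals as lines except for NIM1K, which was chosen for this value; dotted lines mark 2-fold. NIM1K lies at -3.39, and the other 8 members lie between -0.23 and 0.25 with intervals inside the dotted lines.

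Levels of different genes were compared per length, as CPM per kilobase of annotated exon. SIK2 stood highest, at 9.68 ± 1.27 in Con and 9.14 ± 1.20 in Ang, followed by PRKAA1 at 7.67 ± 0.153 and 7.85 ± 1.23. The ranges of these 2 genes over the 6 libraries overlapped. STK11, MARK3, MARK2 and NUAK1 formed a middle group, with Con means from 3.22 to 4.28, in which each overlapped its neighbour. PRKAA1 lay above this group and PRKAA2 below it without overlap. PRKAA2 had 1.72 ± 0.220 in Con, SIK3 1.16 ± 0.282 and NIM1K 1.14 ± 0.177, so that the Con ranges of NIM1K and SIK3 overlapped on this scale. In Ang SIK3 had 1.40 ± 0.522 and NIM1K 0.104 ± 0.0507. NUAK2 had 0.442 ± 0.319 in Con and 0.210 ± 0.183 in Ang, which put NIM1K at place 9 of 10 in Con and at place 10 in Ang. In Ang the range of NUAK2 took in that of NIM1K, so the last place is not settled. The order depended on the length used. With the longest transcript as the length, NIM1K kept places 9 and 10, but SIK2 moved to place 4 in both groups, MARK3 stood first in Con and STK11 first in Ang. SIK3 then had 1.67, 2.56 and 1.79 in Con, all above NIM1K at 1.44, 1.62 and 1.18, and the range of PRKAA1, 8.48 to 11.6, overlapped those of STK11 and MARK3.

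**Figure D3:**
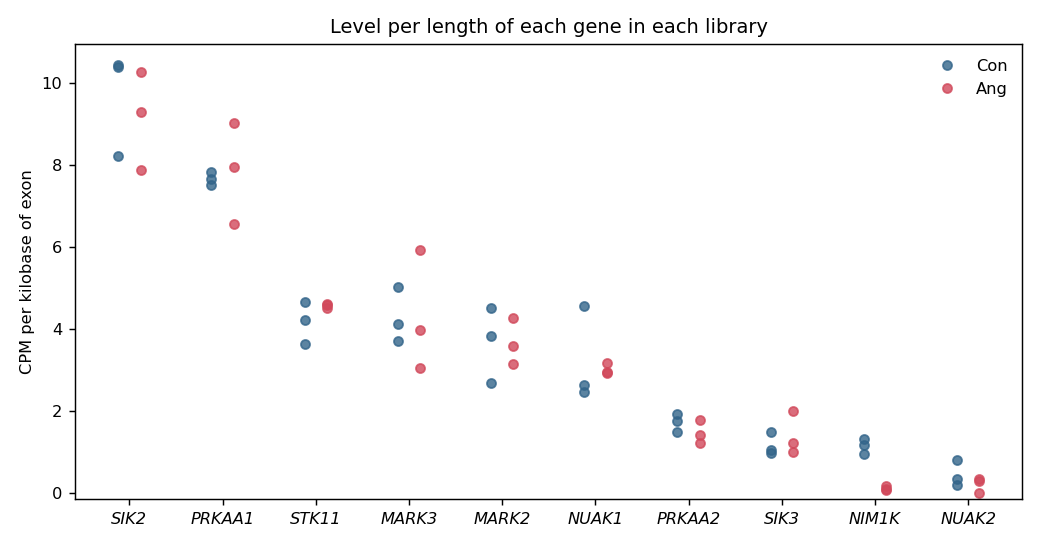
CPM per kilobase of exon (vertical axis) of the 10 kinase genes in each Con and Ang library, ordered by the mean over 6 libraries. NIM1K lies beside SIK3 in the Con libraries, with means of 1.14 and 1.16, and near 0 in the Ang libraries.

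The other AMPK-related kinases were scanned from a list of 9 genes, of which 8 had a row and 5 were tested. None passed the threshold. MARK1, at 68 counts in Con the gene of this list nearest to NIM1K in depth, had 4.22, 4.06 and 7.55 CPM in Con and 3.81, 2.27 and 2.60 CPM in Ang. Its groups did not overlap, and its log2 fold change was -0.84 ± 0.64 with an interval of -2.10 to 0.41. MARK4 averaged 14.5 ± 5.48 CPM over Con and 19.7 ± 8.01 over Ang libraries (log2 fold change 0.42 ± 0.31), and BRSK1, a brain-enriched kinase gene, had 7.33 ± 3.43 and 6.12 ± 0.550 CPM (-0.27 ± 0.47). MELK, a mitotic kinase gene, had 56.1 ± 7.53 and 62.4 ± 5.72 CPM (0.15 ± 0.20). SNRK, with 18.7% of its exon bases under another gene on the opposite strand, had 27.7 ± 7.21 and 25.2 ± 6.05 CPM (-0.12 ± 0.26). The genes under the filter were SIK1 with 2 counts in Con and 3 in Ang, HUNK with 15 and 11, and BRSK2 with 19 and 36. BRSK2, singled out here after its values were seen, had 0.634, 1.69 and 1.89 CPM in Con against 4.40, 2.52 and 3.18 in Ang, without overlap, and was not tested.

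LKB1 partners and AMPK regulatory subunits likewise held no call. Of 4 partner genes 3 were tested. STRADB, a STRAD pseudokinase gene, averaged 46.1 ± 13.9 CPM over Con and 40.8 ± 5.75 over Ang libraries (-0.17 ± 0.22). CAB39, which encodes MO25 alpha, gave 80.5, 68.6 and 61.0 CPM in Con against 59.6, 64.8 and 67.9 in Ang (-0.13 ± 0.19). CAB39L, which encodes MO25 beta, had 3.38, 4.23 and 3.15 CPM in Con and 5.28, 6.56 and 9.53 CPM in Ang, so that all Ang libraries lay above all Con libraries, with a log2 fold change of 0.97 ± 0.54 and an interval of -0.09 to 2.04. STRADA had 4, 24 and 23 counts in Con and 6, 7 and 9 in Ang and was not tested.

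Of the 5 regulatory subunit genes of AMPK 4 were tested, with 2 log2 fold changes above and 2 below 0. The beta subunit genes PRKAB1 and PRKAB2 had log2 fold changes of -0.29 ± 0.58 and 0.08 ± 0.32. The gamma subunit genes PRKAG1 and PRKAG2 had 0.22 ± 0.26 and -0.26 ± 0.25, and PRKAG3 had 1 count in all. PRKAB1 was low, at 5.15 ± 0.257 CPM in Con, and spread from 2.35 to 7.80 CPM over the Ang libraries. Without Ang replicate 3, the highest, its log2 fold change was -1.07 ± 0.74.

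Regulators and substrates of these kinases showed no call. Of 58 genes in 6 pathway lists, 57 had a row and 50 were tested, with 28 log2 fold changes above 0 and 0 called by edgeR, limma-voom or DESeq2. Over all tested genes 49.2% of log2 fold changes were above 0, and the lean of a list was not tested. Among these pathway genes the unadjusted p was under 0.05 for 1 by edgeR, 1 by limma-voom and 0 by DESeq2. Without Con replicate 2 it was so for 6 of 51 by edgeR, where 1633 of all 14867 genes were under 0.05 as well. The pathway gene counted by edgeR over all libraries was TAB1, an activator of the kinase TAK1. TAB1 had 4.65, 8.45 and 1.57 CPM in Con and 9.98, 10.6 and 9.53 CPM in Ang (0.97 ± 0.45). Its value was 1.62 ± 0.53 without Con replicate 2 and 0.60 ± 0.45 without Con replicate 3. Groups that did not overlap were found for 3 of the 50, MARK1 lower and CAB39L and TAB1 higher in Ang, beside 4.54% and 3.62% of all genes in these directions. Of the 9 upstream regulators all were tested and 6 had values above 0. PPM1A, a phosphatase gene, had 0.17 ± 0.22, FNIP1, a folliculin partner gene, 0.18 ± 0.24, MAP3K7, the TAK1 gene, 0.19 ± 0.27, and FLCN, the folliculin gene, -0.33 ± 0.35.

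Of 17 AMPK substrate genes 16 were tested, with 11 values above 0 and a median of 0.08. All tested genes had 49.2% of values above 0 and a median of -0.01. KIF5B, a kinesin gene, averaged 126 ± 2.86 CPM over Con and 127 ± 9.37 over Ang libraries. PFKFB2, a regulator of glycolysis, had a log2 fold change of -0.04 ± 0.18, and TXNIP, an inhibitor of glucose uptake, had 0.09 ± 0.18. ACACA, the acetyl-CoA carboxylase gene of fatty acid synthesis, had 0.20 ± 0.23, and RPTOR, an mTORC1 subunit gene, had 0.24 ± 0.31.

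Of 14 substrate genes of the SIK, NUAK and MARK kinases 13 were tested, with 6 values above 0 and a median of -0.02. MAP4, a microtubule protein gene, averaged 300.2 ± 58.2 CPM over Con and 315 ± 18.1 over Ang libraries (0.07 ± 0.17). The myosin phosphatase genes PPP1R12A and PPP1CB had -0.21 ± 0.19 and -0.16 ± 0.19, and CRTC2, a CREB coactivator gene held back by SIK kinases, had 0.31 ± 0.36, or 0.99 ± 0.42 without Con replicate 2.

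The pattern of NIM1K over the 6 libraries was set beside that of every other kept gene by Pearson's correlation of log2 CPM, as a description over libraries that share depth and group. As NIM1K was chosen for its gap between the groups, the genes most like it were bound to be lower in Ang. The 5 most alike were C2CD4D, MED7, KIF9, AP3S2 and FIBP, with r from 0.976 to 0.981, all lower in Ang in all libraries. Their log2 fold changes, -0.71, -0.99, -0.17, -1.16 and -0.50, were smaller than that of NIM1K. Across the 8 tested members r with NIM1K ran from -0.47 for STK11 to 0.57 for PRKAA2. In all, 81 genes (0.557%) had r above 0.9.

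The log2 fold change of NIM1K ran from -3.81 to -3.14 over 13 alternatives, while the 8 other members tested in the reported fit stayed between -0.40 and 0.48. NUAK2 entered in 3 of these alternatives and lay between the others and NIM1K, with wide errors: -1.05 ± 1.28 with no filter, -1.05 ± 1.17 with a filter of 1 CPM in 3 libraries and -1.07 ± 1.32 in DESeq2. The difference between NUAK2 and NIM1K was not tested. Of the 8 members tested in the reported fit, STK11 kept a value above 0 and PRKAA2 a value below 0 throughout, and the other 6 changed sign in at least 1 alternative, so no direction is given for them.

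**Figure D4:**
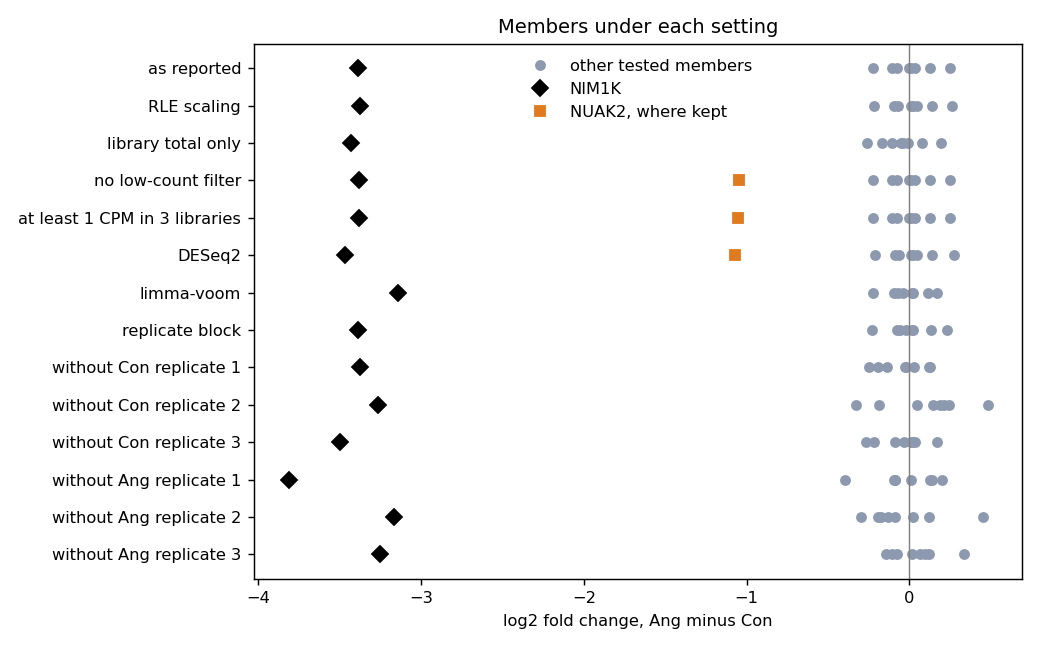
Log2 fold change, Ang minus Con (horizontal axis), of NIM1K (diamonds) and of the 8 other tested members (circles) in the reported fit and in each of 13 alternatives (rows). Squares are NUAK2 in the 3 alternatives that kept it, from -1.07 to -1.05; the diamonds stay between -3.81 and -3.14 and the circles between -0.40 and 0.48.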

How the data were processed

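For each of the 6 libraries the authors deposited raw counts of reads by Ensembl gene. HTSeq 0.9.1, DESeq 1.39.0 and build GRCh38 are named per the submitters' processing notes. The strand option in counting, the aligner and the annotation were not given in the sources used here, and the protocol in the labels names no strand-marking step. Symbols came from a gene name table (28918 of 28979 IDs matched) and places, exons and untranslated regions from GENCODE 29 (28192 IDs). Counts were tested with edgeR 4.0.16 in R 4.3.3 (filterByExpr, TMM, robust quasi-likelihood test, Benjamini-Hochberg adjustment, threshold 0.05), Ang against Con over all 6 libraries. Alternatives used RLE scaling, library totals, other filters, DESeq2 1.42.0, limma 3.58.1 (voom), a replicate block and leaving out each library. On simulated counts for 14547 genes the test called 46.2% of 2-fold and 90.7% of 4-fold changes, and 6.03% of calls were false. The simulation used a smoothed trend of dispersion, with no spread particular to a gene and no deviating library. These shares may therefore be too high for the real libraries. Strand pairs needed 90% of exon bases under 1 coding gene with at least 300 counts. Members and lists were chosen with earlier results of these data known. Named were all members, all tested kinases, partners and subunits, the 3 most abundant genes and the 2 with the smallest p of each other list, neighbours of NIM1K and the 5 genes most like it. No libraries held identical values, and within a group 2 libraries differed by a chi-square of 3.60 to 12.8 per gene, above sampling noise.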

Additional observations from a re-analysis of the deposited data

How the results depend on the processing

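The 0 genes called over all genes stayed 0 except without Con replicate 2 (40 genes) or Con replicate 1 (1 gene), a range of 0 to 40 when 1 library was left out. The cause was not tested. The 0 called members and 0 called pathway genes stayed 0 in all 13 alternatives. One member other than NIM1K passed 2-fold where the filter kept NUAK2, with 1 under no low-count filter (NUAK2 at -1.05 ± 1.28), 1 under a filter of 1 CPM in 3 libraries (-1.05 ± 1.17) and 1 in DESeq2 (-1.07 ± 1.32), since the reported fit left that gene out. Leaving out 1 library moved the log2 fold change of NIM1K between -3.81 and -3.17 and its count ratio between 0.0631 and 0.102. Of 442 other values of named genes under the alternatives, 36 changed sign without a call and 406 did not, and none passed the threshold. Same-numbered Con and Ang libraries had correlations of deviations of 0.037, 0.068 and 0.036, too small to pair them, although each library correlated best with its own number. The replicate block gave 0 genes, 0 members and -3.39 for NIM1K. At 1 to 28 counts a library, NIM1K is limited by depth.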
